A study of Drosophila melanogaster with 42 samples.

Results

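Whole larvae of Drosophila melanogaster were compared at 8 h and at 4 h into the third instar, the last larval stage, on 6 arrays of the 42 in the series. The arrays were chosen by their labels, which give 3 biological replicates of whole larva at 8 h and 3 at 4 h. All larvae of both times were w1118, a white-eyed laboratory strain used as wild type, kept dark at 25 °C with yeast paste as food, with no driver, transgene or treatment. The comparison addresses which transcripts of the whole animal differ between these early times of the instar. The wild-type part held 24 arrays in all, of whole larva and dissected ring gland at 4, 8, 24 and 36 h, and the other arrays held ring glands of driver crosses, which were not used here. Total RNA was labelled with Cy3 and hybridised to one-colour NimbleGen arrays, and each array gave an intensity for 16637 FlyBase transcripts. Whole larvae hold every tissue, so fewer cells of a type and less RNA per cell cannot be told apart in these values.

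The third instar is the main feeding stage of the larva. In its early hours the larva feeds and grows, stores lipid, carbohydrate and protein in the fat body, and passes the critical weight, after which starvation no longer delays metamorphosis. Amino acid supply acts on growth through the kinase complex TORC1, which GATOR complexes regulate, and steroid pulses from the ring gland time the events of the instar.

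Only a small share of the transcripts could be named. A reference gene table held 44 of the 16637 identifiers among its synonyms, 16 for 1 gene and 28 for several genes. For most of the 28 the table marks one gene as the main and another as an upstream reading frame of the same transcript, and all 28 are written with the genes joined by a slash. None of the defining markers of fat body (such as Lsp2), muscle (Mhc), gut, neurons (elav), haemocytes (Hml), salivary gland, testis and ring gland (phm) was among the named transcripts, so the tissue label was not checked against them. A row stands for 1 transcript, and other transcripts of the same gene were not identified.

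Replicate arrays were closer to each other than to arrays of the other time. Across transcripts, which are not independent, log2 intensities correlated with r between 0.9921 and 0.9945 among the 3 arrays at 8 h and between 0.9944 and 0.9957 among the 3 at 4 h. The 9 pairs of an 8 h and a 4 h array had r between 0.9867 and 0.9912. Array medians lay between 281.3 and 300.8 on the 6 arrays, and the number of arrays limits the precision. Among the other wild-type arrays, which entered the fit through the shared estimate of spread, replicate 1 of whole larva at 24 h and at 36 h stood apart. The SD of their log2 deviations from the group mean was 0.413 and 0.448, against 0.164 to 0.226 for the 6 arrays compared. At 36 h, replicates 2 and 3 correlated with r = 0.999, and replicate 1 with r = 0.9742 and 0.975 against them.

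More transcripts were called lower at 8 h than higher. With limma and Benjamini-Hochberg adjustment over all transcripts, 383 of 16637 were called at an adjusted p under 0.05, or 2.3%. Of these, 299 (1.8% of all) were lower at 8 h and 84 (0.505%) were higher. The median log2 change over all transcripts was 0.01. The transcripts called lower fell by 1.21-fold to 16.8-fold, with a median of 1.85-fold, and 128 of them fell at least 2-fold and 29 at least 4-fold. Those called higher rose by 1.21-fold to 9.18-fold, with a median of 1.55-fold, and 15 of them rose at least 2-fold and 4 at least 4-fold. Among all transcripts, called or not, the split was nearer to even, with 242 lower and 183 higher by at least 2-fold. The arrays of the times did not overlap for 84 of the 84 and for 294 of the 299, beside 27.1% of all transcripts. The calls were made on these same arrays, so the separation is no further support for them. The total rested on which arrays entered the fit, and the split of the calls moved with the late arrays that stood apart. Leaving out replicate 1 of whole larva at 24 h and at 36 h gave 1025 calls, 504 higher and 521 lower, with 153 and 149 at a 2-fold minimum, so the excess of falls was not seen there. Leaving out 1 of the compared arrays gave 219 calls without 4 h replicate 1, 183 without 4 h replicate 2, 198 without 8 h replicate 1 and 228 without 8 h replicate 3.

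**Figure D1:**
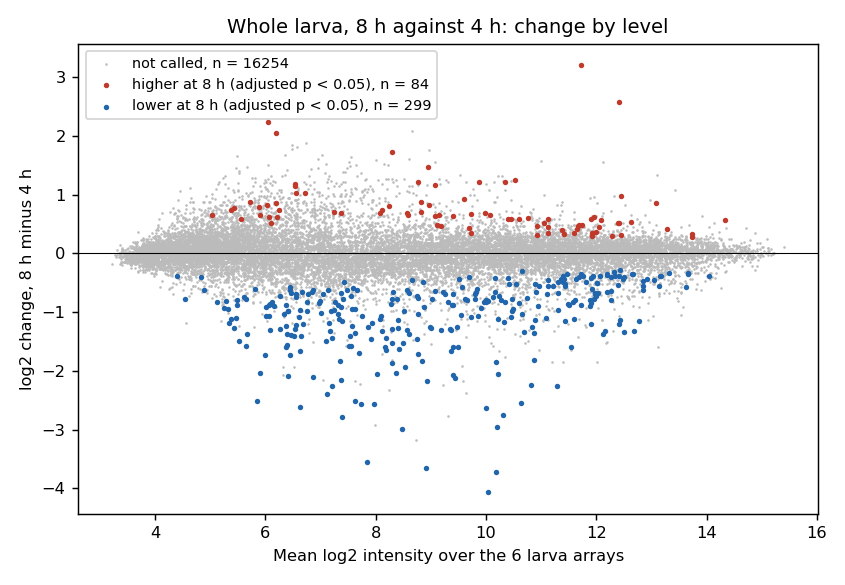
Each point is 1 of 16637 transcripts, with its mean log2 intensity over the 6 whole larva arrays on the horizontal axis and its log2 change, 8 h minus 4 h, on the vertical axis. Red points are the 84 transcripts called higher at 8 h and blue points the 299 called lower, from 3.20 at the top to -4.07 at the bottom.

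Calls were made over the whole range of brightness. Transcripts were divided into 4 equal bins by mean log2 intensity over the wild-type arrays. In the dimmest bin, up to a mean of 52.2, 7 were called higher and 45 lower, or 1.25%. In the next bins, in order of brightness, the calls were 17, 25 and 35 higher and 101, 77 and 76 lower, with 2.84, 2.45 and 2.67% called.

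The transcript of Fatp1 (FBtr0080133), a transporter of fatty acids into cells, was lower at 8 h. Its intensity was 1990, 1840 and 1700 at 8 h, against 3720, 5170 and 3620 at 4 h. All 3 arrays at 8 h lay below all 3 at 4 h. The means were 1840 ± 144 at 8 h and 4170 ± 868 at 4 h (SD, n = 3 each), a log2 change of -1.16 ± 0.17 (SE, limma adjusted p = 0.00081). Over the 4 times its mean intensity in whole larva was 4170 at 4 h, 1840 at 8 h, 1310 at 24 h and 602 at 36 h. The log2 change between 24 and 8 h was -0.51 (limma adjusted p = 0.047) and between 36 and 24 h it was -1.13 (limma adjusted p = 0.00024). Without replicate 1 at 24 and 36 h these were -0.61 and -0.85 (limma adjusted p = 0.012 and 0.0086).

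The transcript of mio (FBtr0077835), a subunit of the GATOR2 complex that acts in amino acid sensing upstream of TORC1, was also lower at 8 h. Its intensity was 115, 108 and 117 at 8 h, against 156, 183 and 190 at 4 h, with no overlap between the times. The log2 change was -0.63 ± 0.15 (SE, limma adjusted p = 0.029). This call was lost when any of 5 of the 6 arrays was left out (without 4 h replicate 2 or 3, or without 8 h replicate 1, 2 or 3), at adjusted p between 0.074 and 0.11, with log2 changes from -0.58 to -0.66. At 24 h the level was 181 ± 21.7 (SD, n = 3), a log2 change of 0.67 from 8 h (limma adjusted p = 0.0027), or 0.58 without the late arrays that stood apart (limma adjusted p = 0.011). Both steps use the same 8 h arrays, so the later one is no separate support for a low level at 8 h. Wdr24, another GATOR2 subunit, had intensities of 450, 303 and 299 at 8 h, against 411, 356 and 385 at 4 h. The arrays of the times overlapped, and its log2 change was -0.16, with a 95% interval from -0.52 to 0.21.

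**Figure D2:**
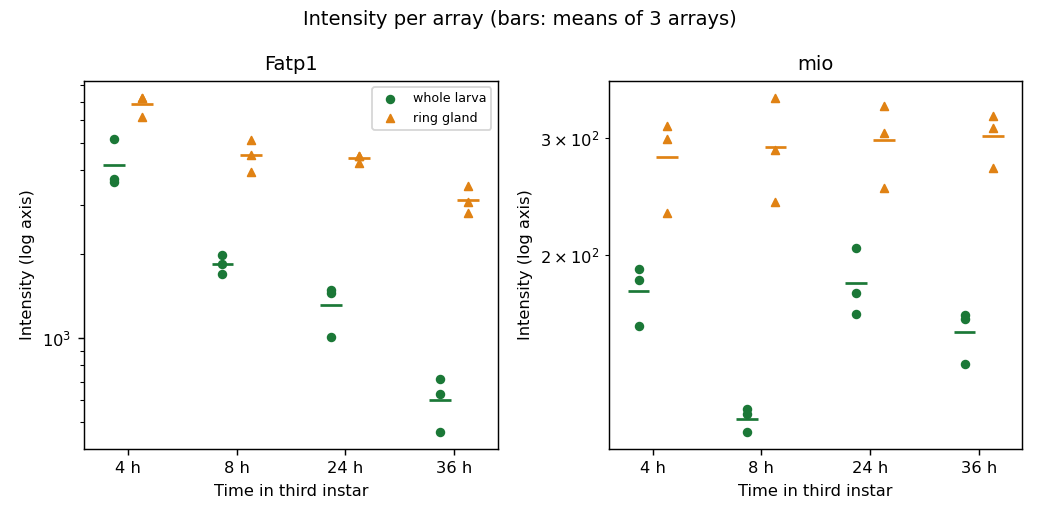
Intensity on a log axis for Fatp1 and mio at 4, 8, 24 and 36 h, with 1 point per array and a bar at the mean of 3 arrays, whole larva as green circles and ring gland as orange triangles. Fatp1 is lower at each later time in whole larva. The mean of mio in whole larva is lowest at 8 h, at 113 ± 5.06, and is 181 ± 21.7 at 24 h, and both steps share the 8 h arrays.

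Fatp1 and mio were the 2 named transcripts called, of 44, where 2.3% of all transcripts were called. No named transcript was called higher by limma, and at an unadjusted p under 0.05 there were 4 higher and 5 lower, where 6.48% of all transcripts were higher and 8.34% lower at that threshold. The median log2 change of the 44 was 0.08, beside 0.01 for all transcripts. Among the 42 not called, log2 changes lay between -0.53 and 0.71, and for 40 the 95% interval lay within 1 log2 unit of 0. The arrays of the times did not overlap for 8 of the 44, beside 27.1% of all transcripts. By the gene lists used, the nutrient signalling list had 2 named members, of which mio fell and Wdr24 was not called, and the lipid metabolism list had Fatp1, which fell. The histone and chromatin list had 3, the replication and cell cycle list had SuUR and the haemocyte list had LanA, and of these 0 were called.

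**Figure D3:**
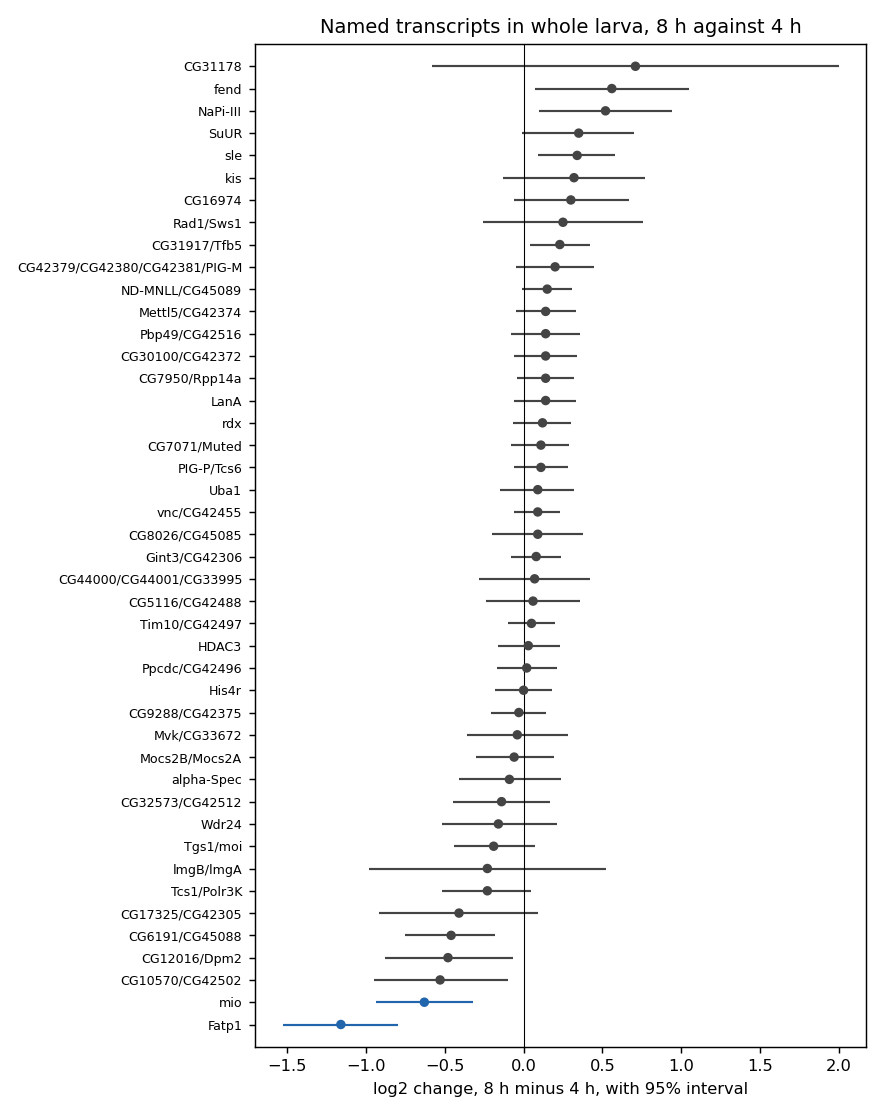
Log2 change, 8 h minus 4 h, in whole larva for the 44 named transcripts, each point with its 95% interval, in order of the change. The blue points are Fatp1 at -1.16 and mio at -0.63, the 2 called, and the interval of CG31178, from -0.58 to 2, is the widest. Intervals use the spread over all wild-type arrays. CG31178 had 22.3, 172 and 193 in whole larva at 24 h, and 1030, 241 and 234 at 36 h.

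Transcripts of chromatin and nuclear proteins were measured with different precision. His4r, a replacement histone H4, had intensities of 14400, 17100 and 16200 at 8 h, against 14400, 15800 and 17500 at 4 h. Its log2 change was 0.00, with a 95% interval from -0.18 to 0.18, so a change of the size seen for Fatp1 lay outside it. HDAC3, a histone deacetylase, was at 0.03 (-0.16 to 0.23). SuUR, which limits replication in polytene chromosomes, had 342, 271 and 279 at 8 h, against 216, 245 and 237 at 4 h, and its log2 change of 0.35 was not called (limma adjusted p = 0.35). At 24 h SuUR was at 170 ± 39.3 (SD, n = 3), lower than at 8 h by limma (adjusted p = 0.0014, and 0.0013 without the late arrays that stood apart). The chromodomain protein transcript kis had 232, 122 and 136 at 8 h, against 120, 120 and 138 at 4 h, so its change of 0.32 rested on 8 h replicate 1. The nucleolar protein transcript sle was at 0.34 (0.09 to 0.58, adjusted p = 0.17), and it was called without 8 h replicate 2, at 0.47 (adjusted p = 0.048).

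The other named transcripts of single genes described here were not called. NaPi-III, a sodium and phosphate cotransporter, had 2010, 1190 and 1420 at 8 h, against 1120, 1040 and 998 at 4 h. Its arrays did not overlap between the times, and its log2 change was 0.52 (0.10 to 0.94, limma adjusted p = 0.22). The spread at 8 h was 425 (SD, n = 3), against 64.8 at 4 h (SD, n = 3). LanA, which encodes a laminin of the basement membrane, was at 0.14 (-0.06 to 0.33), and alpha-Spec, a spectrin of the membrane cytoskeleton, at -0.09 (-0.41 to 0.24). The motor axon growth gene fend was at 0.56 (0.07 to 1.05, adjusted p = 0.26), and was higher at 24 than at 8 h by 0.98 (limma adjusted p = 0.0047, and 0.0019 without the late arrays that stood apart). Uba1, the E1 ubiquitin-activating enzyme, was at 0.09 (-0.15 to 0.32), and rdx, which brings substrates to Cul3 ligases, at 0.12 (-0.07 to 0.30).

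The 28 transcripts that carry several genes include many of household function, and 0 of them were called by limma at 8 against 4 h, with 1 higher and 3 lower at an unadjusted p under 0.05, where 14.8% of all transcripts passed in either direction. For mitochondrial members the intervals were narrow. ND-MNLL/CG45089, of respiratory complex I, was at a log2 change of 0.15 (-0.01 to 0.31), and Tim10/CG42497, a chaperone of protein import, at 0.05 (-0.10 to 0.20). Among members acting in transcription and on RNA, CG31917/Tfb5, whose Tfb5 is a subunit of the transcription factor TFIIH, was at 0.23 (0.04 to 0.42, limma adjusted p = 0.24). CG7950/Rpp14a, whose Rpp14a belongs to RNase P, was at 0.14 (-0.04 to 0.32), and it was lower at 24 than at 8 h by limma, at -0.79. Tgs1/moi, whose Tgs1 trimethylates the caps of small RNAs, was at -0.19 (-0.44 to 0.07), and Tcs1/Polr3K, with a subunit of RNA polymerase III, at -0.23 (-0.52 to 0.05). The GPI anchor synthesis transcripts PIG-P/Tcs6 and CG42379/CG42380/CG42381/PIG-M were at 0.11 (-0.06 to 0.28) and 0.20 (-0.05 to 0.45). Mvk/CG33672, with mevalonate kinase, and Mocs2B/Mocs2A, which encodes the subunits of molybdopterin synthase, were at -0.04 (-0.36 to 0.28) and -0.06 (-0.30 to 0.19).

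The most negative log2 change among the 28 belonged to CG10570/CG42502. Its intensity was 9360, 9480 and 11500 at 8 h, against 14700, 14500 and 14400 at 4 h, with no overlap. The log2 change was -0.53 (-0.95 to -0.10) and was not called (limma adjusted p = 0.21). At 24 h it was at 18500 ± 968 (SD, n = 3), higher than at 8 h by 0.88 (limma adjusted p = 0.0038, and 0.0092 without the late arrays that stood apart). This later step shares the 8 h arrays with the first. CG6191/CG45088 had the smallest adjusted p of the 28. Its intensity was 908, 1010 and 1190 at 8 h, against 1400, 1160 and 1750 at 4 h, so the times overlapped. The log2 change was -0.46 (-0.75 to -0.18, limma adjusted p = 0.086), and it was called without 4 h replicate 2, at -0.61 (limma adjusted p = 0.034). CG12016/Dpm2, whose Dpm2 belongs to dolichol-phosphate mannose synthase, had 570, 636 and 631 at 8 h, against 822, 810 and 921 at 4 h, also without overlap and not called (limma adjusted p = 0.24). CG17325/CG42305 had 14500, 16300 and 14600 at 8 h, against 18600, 22800 and 19300 at 4 h (limma adjusted p = 0.46).

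The largest changes belonged to transcripts without a gene name, of which the 2 largest rises and 2 largest falls are given. FBtr0089326 had intensities of 12900, 7700 and 10700 at 8 h, against 1360, 1410 and 713 at 4 h. It was higher in each 8 h array than in any 4 h array, by a log2 change of 3.20 ± 0.44 (SE, limma adjusted p = 0.00034), or 9.18-fold. FBtr0089324 had 15100, 12000 and 12800 at 8 h, against 2790, 2790 and 1430 at 4 h, a log2 change of 2.57 ± 0.40 (SE, limma adjusted p = 0.0011). In both, 4 h replicate 3 was the lowest array. Their means at 24 h were 15300 and 23900, and at 36 h 16200 and 23900, and neither was called between 24 and 8 h or between 36 and 24 h.

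FBtr0073223 had intensities of 281, 246 and 245 at 8 h, against 4210, 3610 and 5240 at 4 h, a fall of 16.8-fold (log2 change -4.07 ± 0.36, SE, limma adjusted p = 3.9e-06). FBtr0074977 had 282, 386 and 306 at 8 h, against 4300, 3910 and 4510 at 4 h, a fall of 13.2-fold (log2 change -3.72 ± 0.53, SE, limma adjusted p = 0.00053). Both fell further by 24 h, to 70.3 ± 22.5 and 54.3 ± 4.74 (SD, n = 3 each), with log2 changes of -1.92 and -2.57 from 8 h (limma adjusted p = 0.00074 and 0.0017). Without the late arrays that stood apart these changes were -2.16 and -2.64 (limma adjusted p = 0.00045 and 0.004). Their means at 36 h were 47.3 and 53.8, and neither was called between 36 and 24 h. These 4 transcripts kept their calls under all 16 alternatives run for them.

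**Figure D4:**
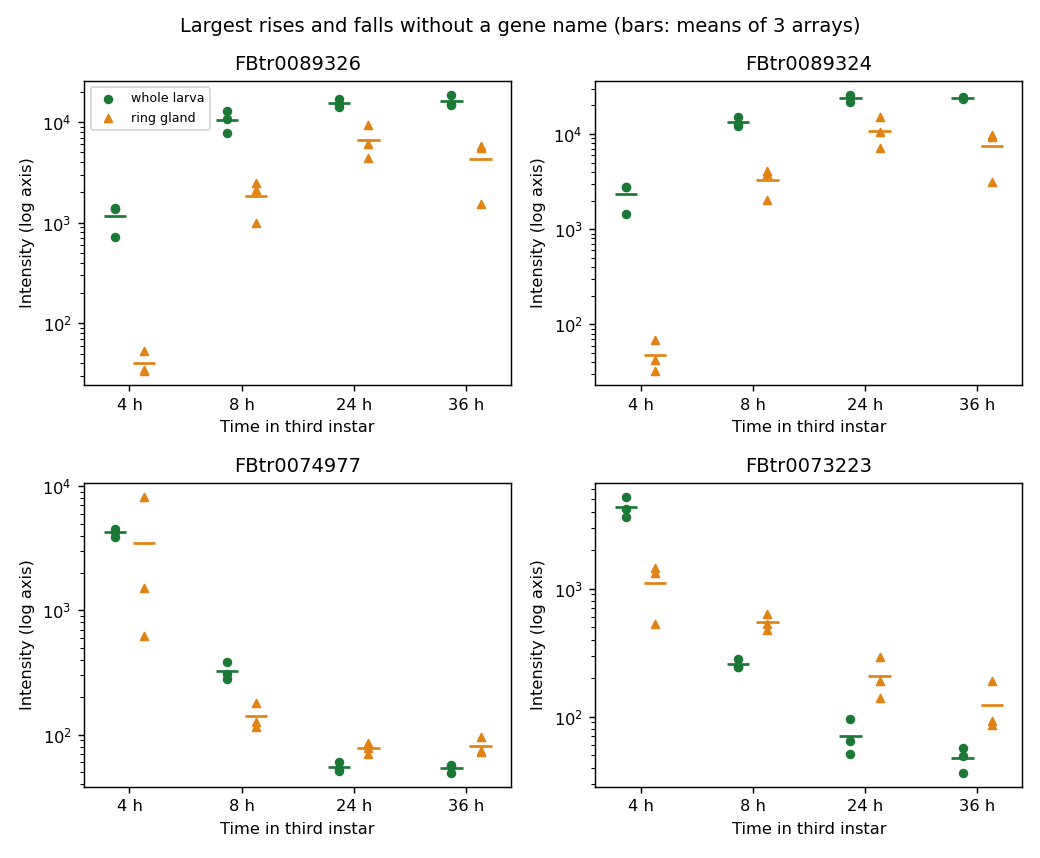
Intensity on a log axis for the 2 largest rises (upper panels) and the 2 largest falls (lower panels) without a gene name, at 4, 8, 24 and 36 h, with 1 point per array and a bar at the mean of 3, whole larva as green circles and ring gland as orange triangles. In whole larva the means of FBtr0089326 go up to 16200 at 36 h, and that of FBtr0073223 is at 47.3 at 36 h.

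The later course of the called transcripts was read as levels, since 24 h against 8 h shares the 8 h arrays. The arrays at 24 and 36 h gave no part of the change from 4 to 8 h, but they entered the spread used for the calls. The median intensity of the 299 transcripts called lower was 802, 856 and 835 on the 4 h arrays and 294, 372 and 365 on the 8 h arrays. It was 355, 276 and 251 at 24 h and 242, 234 and 230 at 36 h, so the median stayed low on all 6 later arrays. By limma, 86 members of this set (28.8%) had a higher intensity at 24 h than at 8 h, and 88 members (29.4%) had a lower one. Over all 16637 transcripts this step gave 1686 higher and 1758 lower, with 20.7% called in either direction. The set was chosen as low on the same 8 h arrays, which favours later rises but not later falls. The 86 rises are therefore no separate evidence that members differed in their later course. The median of the 84 called higher was 706, 680 and 704 at 4 h and 1220, 1070 and 1220 at 8 h. It was 1650, 1580 and 1680 at 24 h and 1590, 1760 and 1790 at 36 h. At 24 against 8 h, which again shares the 8 h arrays, 21 of the 84 were called higher (25%), 11 lower (13.1%) and 52 neither. The median of their log2 changes was -0.02, so the higher set median does not show a further rise of the typical member.

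Between 36 and 24 h, where neither the 8 h nor the 4 h arrays enter the change, 61 of the 299 were called lower (20.4%) and 21 higher (7.02%), where 11% of all transcripts were lower and 11.1% higher. With the 2 arrays that stood apart left out, 43 of 521 were lower (8.25%) and 34 higher (6.53%), where 4.26% of all were lower and 5.09% higher. Of the 84 called higher at 8 h, 14 were lower (16.7%) and 11 higher (13.1%) at 36 than at 24 h. With those 2 arrays left out the set called higher at 8 h was another, of 504, with 22 lower (4.37%) and 41 higher (8.13%). Between 24 and 8 h, 3444 transcripts were called (20.7%), and 4739 without those 2 arrays. This step gave 17 calls among the 44, with 5 higher at 24 h and 12 lower, and 7 and 12 without those arrays. The 5 were fend, CG10570/CG42502, mio, CG32573/CG42512 and His4r, and CG32573/CG42512 was not called without those arrays (limma adjusted p = 0.068).

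The same 4 h step was then set beside that of the ring gland, the endocrine organ that makes ecdysone. The gland was measured on other arrays than the larva, but both entered the same fit and its shared estimate of spread. Fatp1 had intensities of 3930, 4530 and 5110 at 8 h in ring gland, against 7230, 7210 and 6160 at 4 h. The arrays did not overlap, and the log2 change of -0.61 ± 0.17 (SE) was not called (limma adjusted p = 0.053). Its change in larva minus that in gland was -0.56 (95% interval -1.07 to -0.04, limma adjusted p = 0.34). The log2 change of mio in the gland was 0.05 ± 0.15 (SE), and the difference between the tissues, -0.68, was not called (limma adjusted p = 0.13). Of the 44, 1 was called in the gland, where 2.35% of all transcripts were called lower and 2.4% higher. It was CG10570/CG42502, at -1.17 ± 0.20 (SE, limma adjusted p = 0.0024), and its difference between the tissues was 0.64 (0.05 to 1.24, limma adjusted p = 0.34). The difference was called by limma for 0 of the 44, and for 10 at an unadjusted p under 0.05, where 13% of all transcripts passed.

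Over all transcripts the test of the difference between the tissues called 245, or 1.47%, with 80 more positive and 165 more negative in larva. This test counts a change in either tissue. The number was 453 without replicate 1 of whole larva at 24 h and at 36 h. It was 156, 142 and 128 without 4 h larva replicate 1, 2 or 3, and 101 and 123 without 8 h larva replicate 1 or 3. Of the 299 transcripts called lower in larva, 45 were also called lower in the gland (15.1% of the 299, and 11.5% of the gland's own lower calls) and 2 higher, where 2.35% of all transcripts were lower and 2.4% higher. Of the 84 called higher, 12 were also higher in the gland (14.3% of the 84 and 3.01% of the gland's higher calls) and 2 lower. With the 2 arrays that stood apart left out, 70 of 521 were lower in the gland (13.4%) and 26 of 504 higher (5.16%), where 3.04% of all were lower and 3.23% higher. Calls in both tissues use 1 estimate of spread per transcript, so they are not fully independent.

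The 4 unnamed transcripts differed in this respect. FBtr0089324 was at 4070, 3820 and 2010 in ring gland at 8 h, against 67.9, 42.7 and 32.2 at 4 h, a log2 change of 6.12. Its change in larva minus that in gland was -3.55 (limma adjusted p = 0.0025), and its level at 4 h was higher in larva than in gland on every array. FBtr0089326 rose in the gland by 5.45, from 53.5, 34.4 and 33.4 at 4 h, and its difference between the tissues, -2.26, was not called (limma adjusted p = 0.083). Both transcripts were dim in the gland at 4 h, around the limit of 52.2 of the dimmest bin. FBtr0073223 was at 534, 473 and 631 in ring gland at 8 h, against 1320, 529 and 1450 at 4 h, and it fell more in larva, by a difference of -3.18 (limma adjusted p = 0.0028). FBtr0074977 was at 179, 127 and 114 in ring gland at 8 h, against 616, 1510 and 8250 at 4 h, where its replicates differed most, and its difference between the tissues was 0.13 (-1.46 to 1.71).

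**Figure D5:**
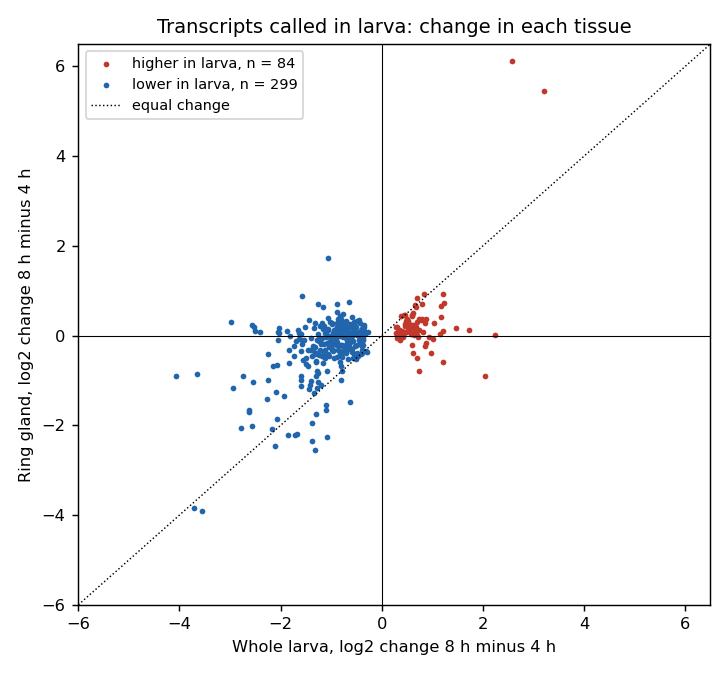
Log2 change, 8 h minus 4 h, in whole larva (horizontal axis) and in ring gland (vertical axis) for the 383 transcripts called in larva, red for the 84 higher and blue for the 299 lower, with a dotted line of equal change. The changes in larva were used to choose the points, and 346 of the 383 points (90.3%) lie within 1 log2 unit of 0 in the gland, as do 96.2% of all transcripts, with FBtr0089324 and FBtr0089326 at the top, at 6.12 and 5.45.

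The tissue in which the called transcripts were higher was read at 24 h, on arrays that entered the calls through the shared spread alone. Of the 299 called lower by 8 h, 83 were higher in whole larva than in ring gland (27.8%) and 110 lower (36.8%), where 23.2% of all transcripts were higher and 46.1% lower. Of the 84 called higher by 8 h, 30 were higher in whole larva (35.7%) and 37 lower (44%). Leaving out replicate 1 of whole larva at 24 and 36 h changed the sets themselves as well as the arrays. Of the 504 then called higher by 8 h, 367 were higher in whole larva (72.8%) and 78 lower (15.5%). Of the 521 called lower by 8 h, 117 were then higher in whole larva (22.5%) and 239 lower (45.9%), where 24.5% of all transcripts were higher and 46.3% lower. The 84 and the 299 were not counted again without those 2 arrays, so these shares are of different sets. The part of the arrays and of the change of sets was not tested. Fatp1 and mio were lower in whole larva than in ring gland at 24 h, by log2 changes of -1.76 ± 0.17 and -0.71 ± 0.15 (SE, limma adjusted p = 5.8e-08 and 0.00031), and by -1.86 and -0.81 with those arrays left out (limma adjusted p = 5.1e-08 and 0.00025).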

How the data were processed

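The authors' deposited table gives intensity on the linear scale. RMA is the tool that the submitters' processing notes name, without a version. The sources used here do not give probe annotation, genome build or the slide of each array, so no slide could be tested as a batch. RMA normalization equalizes arrays and would hide a change in total RNA. Deposited intensities were converted to log2, with no pseudocount added. The 24 wild-type arrays were fitted with limma 3.58.1 in R 4.3.3 (group means, contrasts, empirical Bayes without trend), and p-values were adjusted by Benjamini-Hochberg over 16637 transcripts, 2-sided, with calls at an adjusted p under 0.05. Errors are limma standard errors, and intervals are 95% intervals unadjusted for the number of transcripts. The fit was tested before use on simulated data that gave a transcript the same spread on every array. That test therefore did not cover arrays that differ in spread. Names came from the synonyms of a RefSeq gene table of Release 6 plus ISO1 MT. The rule for named genes was every transcript paired with 1 gene, and the 2 largest rises and falls among called, non-overlapping transcripts without a name. The 28 transcripts paired with several genes were added to it after the table was seen. Of 22 gene lists, 5 had a named transcript. The members and lists were chosen with earlier results of these data known. Alternatives were a second quantile normalization, centring, a filter on dim transcripts, other moderation, array weights, fewer arrays, a replicate block, log2(value + 50) and a 2-fold minimum. P-values measure the spread between arrays that the labels call biological replicates.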

Additional observations from a re-analysis of the deposited data

Results flagged for a closer look

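Among the transcripts described, 2 changed differently in whole larva and in ring gland between 4 and 8 h by the interaction test. For FBtr0089324 the log2 change of whole larva minus that of ring gland was -3.55 (95% interval -4.73 to -2.36), since its rise was 2.57 in larva and 6.12 in gland. For FBtr0073223 it was -3.18 (-4.25 to -2.10), since its change was -4.07 in larva and -0.89 in gland. Groups of 3 arrays are too small for a test of single outlying arrays.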

How the results depend on the processing

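For 8 against 4 h, 383 transcripts were called, and the number was 1185 with array weights (whose estimation stopped before full convergence), 686 with only the 6 compared arrays and 143 at a 2-fold minimum. It was 1025 without replicate 1 of whole larva at 24 and 36 h, an alternative chosen after seeing the data, as was the fit of the whole larva arrays alone. With 1 compared array left out it lay between 183 and 320. For the difference between larva and gland, 245 in the main setting, it was 518 with array weights, 383 with log2(value + 50), 453 without those 2 late arrays, 158 at a 2-fold minimum and between 101 and 268 with 1 array left out. For 24 against 8 h, 3444 became 955 at a 2-fold minimum and lay between 2605 and 3394 with 1 array left out. The other alternatives moved these numbers by less than 1.5 times. At a 2-fold minimum the calls lower at 8 h outnumbered those higher in 15 of 16 alternatives, the exception being the fit without the 2 late arrays. The size of the excess varied, with 136 higher and 167 lower with array weights, and 72 and 176 with only the 6 compared arrays. Called or not, 183 transcripts were higher and 242 lower by at least 2-fold in the main setting, and 367 and 202 without 8 h replicate 1. The cause of these shifts was not tested. Of the 44 named transcripts, 2 were called, and 1 to 2 with 1 array left out. Fatp1 kept its call in 16 of 16 alternatives, at log2 changes from -1.25 to -1. CG6191/CG45088 was called without 4 h replicate 2 (-0.61), and CG10570/CG42502 in the fit of the larva arrays alone (-0.53). A further 10 named transcripts changed sign under some alternatives while not called, in 19 combinations of transcript and alternative. Same-numbered arrays at 8 and 4 h did not deviate together (r = 0.09, -0.19 and 0), so the numbers were not taken as pairs. With the replicate block the counts were 366, 210 and 3319.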

Other observations

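Between 36 and 24 h in whole larva, 4 of the 44 named transcripts were called higher by limma and 6 lower, where 11.1% of all transcripts were higher and 11% lower. With replicate 1 of both times left out, 1 was higher and 1 lower, where 5.09% of all were higher and 4.26% lower. CG32573/CG42512 was the most changed, at 1260 ± 22.6 at 36 h and 93.2 ± 14.7 at 24 h (SD, n = 3 each), a log2 change of 3.77 (limma adjusted p = 1.3e-11, and 2.1e-09 without those arrays). Its level was 65.4 ± 6.09 at 8 h and 73.2 ± 15.7 at 4 h (SD, n = 3 each), so it stayed low through the step described above. CG31178 differed most between replicates, with 1030, 241 and 234 at 36 h against 22.3, 172 and 193 at 24 h. It was called higher at 36 h (log2 change 2.10, limma adjusted p = 0.022), and with replicate 1 of both times left out the change was 0.38 (limma adjusted p = 0.45). Without those arrays CG31178 was instead called higher at 24 than at 8 h, by 2.46 (limma adjusted p = 1.8e-06).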
